A study of Homo sapiens with 6 samples.

Results

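The RNAs described here are antisense long noncoding RNAs of a human pancreatic ductal cell line. They were chosen by name and level: the lncRNA genes whose names end in -AS1 and whose mean over the 6 libraries was 100 normalized reads or more, where a normalized read is a read count divided by its library's size factor. The rule held for 216 of the 62754 genes in the deposited table, out of 1664 lncRNA genes named -AS1, of which 1074 had reads. Each was related to the sense gene named before -AS1. The table listed that gene for 215 members, and only HOXB-AS1, named for a gene cluster, had none. The mean that selected them was taken over both treatments, so an RNA could enter through 1 treatment alone. The mean of the members ran from 101 to 17033 normalized reads, with a median of 280.3, and 28 members had a mean of 1000 or more.

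HPNE-hTERT cells are non-malignant pancreatic ductal epithelial cells, kept dividing by the catalytic subunit of telomerase. One group of 3 libraries, labelled day 4, came from cells given FOLFIRINOX, a chemotherapy regimen. It consisted here of 10 µM 5-fluorouracil, which disturbs thymidylate and RNA synthesis, 25 nM SN-38, the topoisomerase I poison that irinotecan is converted to, and 5 µM oxaliplatin, a platinum compound that crosslinks DNA. The labels describe this treatment as inducing senescence, a lasting arrest of division. The other group of 3 libraries came from cells of the same line and day given the DMSO vehicle. All libraries were made from polyadenylated RNA of 1 cell line. Whether the libraries of a group are separate cultures is not stated in the labels. The p-values therefore describe the spread among these libraries, some or all of which may be technical. The libraries are named by the P numbers of the column names, P14, P15 and P19, and values per library follow that order. The comparison asks which antisense RNAs and which of their sense genes differed in level between FOLFIRINOX and vehicle.

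An antisense RNA is transcribed from the strand opposite to a named gene, its sense gene. Some pairs start close together and run apart (head-to-head), often from a shared promoter region. Others run towards each other and overlap at their ends (tail-to-tail), or lie inside an intron. A few antisense RNAs are known to act on the chromatin of their own locus, on the sense transcript or on microRNAs, and for most no function is known. Many are kept in the nucleus at low levels and are degraded by the nuclear RNA exosome. How strand was treated in the read counting is not given in the sources used here. If strand was not used, reads from the stretch where a pair overlaps cannot be assigned to 1 of its genes.

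Promoters of 3 head-to-head pairs show how close the starts of such genes lie, in a pair that was lower in FOLFIRINOX (TMPO) and in pairs that were higher (INKA2 and ZNF561). The windows are RefSeq sequences of GRCh38.p14, from 250 bases before to 50 after each start, written 5′ to 3′ on the gene's own strand, at chr12:98516177-98516476, - strand for TMPO-AS1, chr12:98515340-98515639, + strand for TMPO, chr1:111739591-111739890, + strand for INKA2-AS1, chr1:111739346-111739645, - strand for INKA2, chr19:9621232-9621531, + strand for ZNF561-AS1 and chr19:9621183-9621482, - strand for ZNF561. Capitals mark the motif CCAAT, or ATTGG where it stands on the other strand. CCAAT is the element that the factor NF-Y binds in many promoters.
TMPO-AS1: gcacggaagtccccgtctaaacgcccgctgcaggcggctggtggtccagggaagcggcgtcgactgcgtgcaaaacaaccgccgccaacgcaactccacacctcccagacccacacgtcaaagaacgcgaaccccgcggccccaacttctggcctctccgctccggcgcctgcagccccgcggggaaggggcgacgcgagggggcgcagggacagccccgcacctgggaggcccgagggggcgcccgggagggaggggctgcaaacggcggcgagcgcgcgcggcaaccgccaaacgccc
TMPO: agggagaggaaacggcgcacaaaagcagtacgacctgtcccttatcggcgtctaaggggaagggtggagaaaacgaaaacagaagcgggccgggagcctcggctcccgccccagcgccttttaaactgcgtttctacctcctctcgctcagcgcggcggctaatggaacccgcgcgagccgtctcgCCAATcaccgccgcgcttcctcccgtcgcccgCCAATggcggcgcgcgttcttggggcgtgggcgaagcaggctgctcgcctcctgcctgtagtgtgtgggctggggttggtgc
INKA2-AS1: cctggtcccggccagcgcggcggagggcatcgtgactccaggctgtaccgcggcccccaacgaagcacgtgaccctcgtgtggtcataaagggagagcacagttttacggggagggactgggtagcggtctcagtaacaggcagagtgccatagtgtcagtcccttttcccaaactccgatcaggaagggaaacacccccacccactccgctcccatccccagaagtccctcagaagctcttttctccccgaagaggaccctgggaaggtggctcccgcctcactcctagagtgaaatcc
INKA2: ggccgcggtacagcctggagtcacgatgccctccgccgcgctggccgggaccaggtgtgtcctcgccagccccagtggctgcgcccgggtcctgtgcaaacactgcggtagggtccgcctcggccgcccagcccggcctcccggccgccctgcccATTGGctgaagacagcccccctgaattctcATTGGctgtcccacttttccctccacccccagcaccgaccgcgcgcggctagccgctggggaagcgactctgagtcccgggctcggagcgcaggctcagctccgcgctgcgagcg
ZNF561-AS1: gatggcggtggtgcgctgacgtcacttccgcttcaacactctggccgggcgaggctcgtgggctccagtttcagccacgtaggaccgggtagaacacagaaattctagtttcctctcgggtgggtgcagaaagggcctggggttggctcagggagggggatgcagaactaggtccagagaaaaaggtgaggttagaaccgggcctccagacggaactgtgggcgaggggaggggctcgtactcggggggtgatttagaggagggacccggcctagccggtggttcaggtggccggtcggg
ZNF561: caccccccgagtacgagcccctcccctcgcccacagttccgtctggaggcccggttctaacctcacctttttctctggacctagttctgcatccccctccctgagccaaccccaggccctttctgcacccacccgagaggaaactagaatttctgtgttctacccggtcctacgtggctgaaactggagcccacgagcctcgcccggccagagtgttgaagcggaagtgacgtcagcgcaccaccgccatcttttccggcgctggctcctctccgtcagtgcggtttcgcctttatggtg

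The TMPO window held 2 CCAAT motifs and the INKA2 window held 2 in the ATTGG orientation, while the windows of their antisense RNAs and of the ZNF561 pair held none. The ZNF561 windows shared 251 bases, the INKA2 windows shared 55, and the TMPO windows shared 0. RefSeq promoters were matched for 169 of the 216 members, with 210 windows. On either strand, CCAAT was found in 32.4% of the members' windows and in 34.6% of all 35116 promoter windows. TTTGAA, the core of the CHR element of cell cycle genes, was found in 9.52% of the members' windows and 15.2% of all windows. TTCCCGC, the core of an E2F site, was found in 8.57% and 6.55%. Each motif was counted on its own, and a match describes only the letters in a window.

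The libraries held 83981154 to 91992824 reads in FOLFIRINOX and 86435436 to 97762802 in vehicle, as recovered from the normalized values. Mitochondrial ribosomal RNA took 2.74%, 1.18% and 1.23% of reads in FOLFIRINOX and 0.864%, 0.563% and 0.552% in vehicle, so the groups did not overlap in this share and P14 was the highest of each. The part of this share in the results was not tested, and counts without both P14 libraries stand beside the main counts. The summed level of 10 ductal epithelial markers was 8966 to 9959 normalized reads in FOLFIRINOX and 11979 to 14440 in vehicle. KRT8, KRT18 and SOX9 were over a mean of 1000, and 4 of the 10, KRT19, EPCAM and CFTR among them, were under a mean of 10. KRT18 took most of the sum, with means of 7148 in FOLFIRINOX and 9901 in vehicle. Markers with a higher mean in FOLFIRINOX included CDH1 (64.5 against 51.1) and KRT19 (9.89 against 3.34). Of other cell types, 4 of 4 acinar and 4 of 4 islet markers and 3 of 4 leukocyte markers had a mean under 10, as had 1 of 3 endothelial markers. The leukocyte markers summed to 14.4 to 70.0 normalized reads in FOLFIRINOX and 6.37 to 15.4 in vehicle. The 6 mesenchymal or progenitor markers, VIM and NES among them, were all over that mean and summed to 2245920.5 to 2679509 in FOLFIRINOX and 3081669 to 4525446 in vehicle. FN1 took most of that sum, with means of 1879127 in FOLFIRINOX and 2772919 in vehicle. The part of these markers in the results was not tested. In bulk RNA, fewer cells of a type and less RNA per cell cannot be told apart.

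Antisense RNAs were more often higher than lower after FOLFIRINOX. In the limma fit over all 17951 genes tested, on log2 values plus a pseudocount of 1 and with adjusted p-values under 0.05 called, 75 of the 216 members (34.7%) were higher in FOLFIRINOX and 8 (3.70%) were lower, against a background of 11.4% higher and 12.2% lower among all genes tested. Among genes with a mean of 100 or more, like the members, 11.6% were higher and 15.4% lower. All 216 members passed the filter on low values. The median log2 difference, FOLFIRINOX minus vehicle, was 0.45 for the members, with quartiles of 0.05 and 0.85, and 0.02 for all genes tested, and 168 of the 216 differences were positive. Members took 0.185%, 0.186% and 0.182% of reads in FOLFIRINOX and 0.131%, 0.142% and 0.149% in vehicle, without overlap.

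The called differences of the higher members ran from 0.56 to 4.66 on the log2 scale, and 40 of them were at least 2-fold. Of the 8 lower members, 4 were at least 2-fold lower. In 74 of the 75 higher members and in all 8 lower ones, the 3 FOLFIRINOX values lay on 1 side of the 3 vehicle values. Over all 216 members, called or not, groups did not overlap in 111 with FOLFIRINOX higher and 15 with FOLFIRINOX lower, against a background of 19.9% and 19.6% of all genes tested. All 75 higher and all 8 lower members had the same direction within P14, within P15 and within P19. Groups without overlap fix that direction in advance, so it is no further support for these calls. Called or not, 140 of the 216 members were higher and 25 lower within every P number. Of all 17951 genes tested, 6048 were higher and 5654 lower in this way. The other 133 members were not called, with differences of -0.75 to 0.84, and for 99 of them the 95% interval lay within 1 log2 unit of 0.

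With the P number as a block, 16 members were lower, and 108 were higher, against a background of 22.3% higher and 21.8% lower. Without both P14 libraries 40 members were higher and 4 lower, while the all-gene counts were 1021 higher and 1326 lower against 2047 and 2191 with all libraries. The lower count was 4 without FOLFIRINOX P15, FOLFIRINOX P19, vehicle P15 or vehicle P19.

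**Figure D1:**
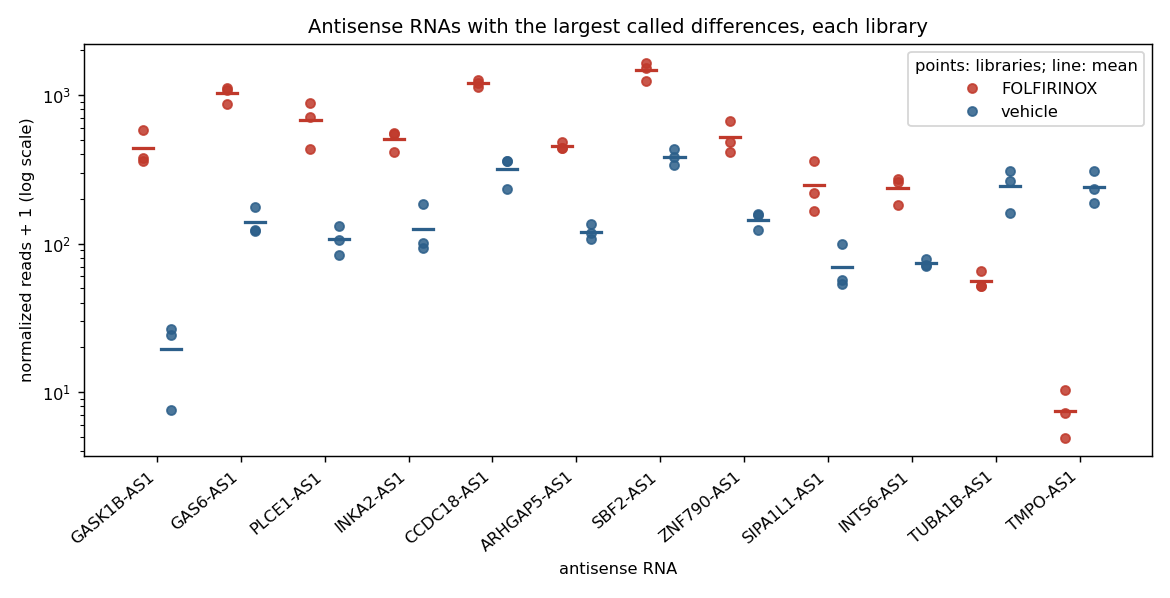
Normalized reads plus 1 in each library (log axis) for the 12 called antisense RNAs with the largest log2 differences, FOLFIRINOX left of vehicle, with a line at the mean of 3 libraries. In 10 of the 12 every FOLFIRINOX point lies above every vehicle point, and in TUBA1B-AS1 and TMPO-AS1 every FOLFIRINOX point lies below.

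TMPO-AS1 was lower in FOLFIRINOX. Its sense gene TMPO encodes lamina-associated polypeptide 2, a family of nuclear envelope and nucleoplasmic proteins that bind lamins. TMPO-AS1 (chr12:98512973-98516422, - strand; GRCh38, GENCODE 29) had 6.17, 3.93 and 9.34 normalized reads in FOLFIRINOX, against 185, 230.2 and 307 in vehicle. Every FOLFIRINOX library was far below every vehicle library (33.1-fold lower; limma log2 difference -5.05 ± 0.38 (SE), adjusted p = 4.5e-06). All 3 FOLFIRINOX values were under the filter's minimum of 10, so TMPO-AS1 was tested only through the vehicle libraries, where it is high. With a vehicle library left out it was not tested, and it kept its call without each FOLFIRINOX library. TMPO had 2649, 2949 and 3057 normalized reads in FOLFIRINOX, against 13461, 17539 and 20359.9 in vehicle, and was lower in each FOLFIRINOX library (5.86-fold lower; limma log2 difference -2.55 ± 0.18 (SE), adjusted p = 2.7e-06). The antisense to sense ratio, the difference of the 2 log2 values, was itself lower in FOLFIRINOX by limma (-2.50 ± 0.33 (SE), adjusted p = 0.0020). The pair is head-to-head, with starts 910 bases apart, and 713 exonic bases of TMPO-AS1 (21.2%) overlap TMPO exons.

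TUBA1B-AS1 was the other member at least 4-fold lower. Its sense gene TUBA1B encodes an alpha-tubulin, a building block of microtubules. TUBA1B-AS1 (chr12:49127782-49147869, + strand) had 50.4, 51.1 and 64.4 normalized reads in FOLFIRINOX, against 305, 262 and 159.8 in vehicle, without overlap (limma log2 difference -2.07 ± 0.29 (SE), adjusted p = 0.00050). TUBA1B had 30522, 32702 and 30820.1 normalized reads in FOLFIRINOX, against 152649, 133737 and 140030.1 in vehicle, also without overlap (limma log2 difference -2.18 ± 0.14 (SE), adjusted p = 1.5e-06). The ratio change was 0.11 ± 0.33 (SE; 95% interval -0.64 to 0.86; limma adjusted p = 0.84). The sense gene lies inside the antisense gene and 80.2% of the exonic bases of TUBA1B-AS1 overlap exons of TUBA1B, so without strand most of its reads cannot be assigned to 1 of the genes.

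GASK1B-AS1 had the largest difference among the higher members. GASK1B encodes a Golgi-associated kinase-like protein. GASK1B-AS1 (chr4:158170752-158202877, + strand) had 578, 378 and 359.5 normalized reads in FOLFIRINOX, against 25.6, 23.3 and 6.54 in vehicle. The lowest FOLFIRINOX library was above the highest vehicle library (25.3-fold higher; limma log2 difference 4.66 ± 0.45 (SE), adjusted p = 3.1e-05). GASK1B itself had 22519.6, 24333 and 29583 normalized reads in FOLFIRINOX, against 2864, 3108 and 3219 in vehicle, again with every FOLFIRINOX library higher (limma log2 difference 3.05 ± 0.16 (SE), adjusted p = 2.5e-07). The ratio change of 1.61, adjusted p = 0.066 by limma did not pass, and it passed with the P number as a block (adjusted p = 0.033) and without vehicle P14 (adjusted p = 0.035).

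GAS6-AS1 and PLCE1-AS1 followed in size, each beside a sense gene that did not pass the test. GAS6 encodes the ligand of the TAM receptor tyrosine kinases AXL, MERTK and TYRO3. GAS6-AS1 (chr13:113815630-113845744, + strand) had 873, 1088 and 1122 normalized reads in FOLFIRINOX, against 122, 121 and 176 in vehicle, all 3 FOLFIRINOX libraries being higher (limma log2 difference 2.89 ± 0.22 (SE), adjusted p = 4.5e-06). GAS6 had 3028, 3885 and 3272 normalized reads in FOLFIRINOX, against 5224, 5081 and 3986 in vehicle, lower in every FOLFIRINOX library without passing (limma log2 difference -0.49 ± 0.17 (SE), adjusted p = 0.066). GAS6 was called lower with the P number as a block (adjusted p = 0.0018) and without vehicle P19 (adjusted p = 0.028). The ratio was higher in FOLFIRINOX by limma (3.37 ± 0.34 (SE), adjusted p = 0.00044).

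PLCE1 encodes phospholipase C epsilon, which Ras-family GTPases activate. PLCE1-AS1 (chr10:94279277-94287478, - strand), which lies inside PLCE1, had 709, 435 and 881 normalized reads in FOLFIRINOX, against 104, 82.8 and 129.9 in vehicle. FOLFIRINOX was higher in every library (limma log2 difference 2.63 ± 0.28 (SE), adjusted p = 7.6e-05). PLCE1 had 198, 273 and 448 normalized reads in FOLFIRINOX, against 372, 545 and 508 in vehicle, with overlapping groups (limma log2 difference -0.69 ± 0.29 (SE), adjusted p = 0.11; adjusted p = 0.0023 with the P number as a block, and called lower without FOLFIRINOX P19 (adjusted p = 0.022)). The ratio was higher in FOLFIRINOX by limma (3.32 ± 0.40 (SE), adjusted p = 0.0011).

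INKA2-AS1 and ARHGAP5-AS1 were higher together with their sense genes. INKA2 encodes an inhibitor of the kinase PAK4, and ARHGAP5 a GTPase-activating protein. INKA2-AS1 had 549, 551 and 411 normalized reads in FOLFIRINOX, against 184, 99.7 and 91.6 in vehicle, and INKA2 had 5664, 7297 and 6049 normalized reads in FOLFIRINOX, against 1566, 1538 and 1165 in vehicle. Neither gene's groups overlapped, and the log2 differences were 2.06 ± 0.28 for the antisense RNA and 2.16 ± 0.18 for the sense gene (SE; limma adjusted p = 0.00044 and 1.0e-05). These are the genes whose windows are printed above, with starts 417 bases apart and no gene overlap in GENCODE 29. ARHGAP5-AS1 had 481, 438 and 442 normalized reads in FOLFIRINOX, against 135, 106 and 116 in vehicle (limma log2 difference 1.93 ± 0.20 (SE), adjusted p = 5.7e-05), and ARHGAP5 had 12481, 10944 and 19020.4 normalized reads in FOLFIRINOX, against 5439, 4498 and 8421 in vehicle (limma log2 difference 1.22 ± 0.26 (SE), adjusted p = 0.0065). In both pairs the ratio change did not pass (-0.10 for INKA2, 95% interval -0.85 to 0.65; 0.71 for ARHGAP5, 95% interval -0.12 to 1.54).

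SIPA1L1-AS1 and INTS6-AS1 were higher while their sense genes had differences near 0. SIPA1L1 encodes a GTPase-activating protein for Rap, and INTS6 a subunit of the Integrator complex, which cleaves nascent RNA. SIPA1L1-AS1 had 357, 218 and 164 normalized reads in FOLFIRINOX, against 98.3, 52.0 and 56.1 in vehicle, without overlap (limma log2 difference 1.81 ± 0.34 (SE), adjusted p = 0.0034). SIPA1L1 had a log2 difference of -0.09 (adjusted p = 0.72) and overlapping groups. INTS6-AS1 had 257, 272 and 180.2 normalized reads in FOLFIRINOX, against 77.9, 70.0 and 71.0 in vehicle, also without overlap (limma log2 difference 1.66 ± 0.24 (SE), adjusted p = 0.00070), and INTS6 had -0.02 (adjusted p = 0.95). The ratio changes were 1.90, adjusted p = 0.019, for SIPA1L1-AS1 and 1.68, adjusted p = 0.016, for INTS6-AS1 by limma. That of SIPA1L1-AS1 did not pass without FOLFIRINOX P14 or vehicle P15 (adjusted p 0.051 to 0.057).

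Of 196 sense genes that passed the filter, 25 (12.8%) were higher and 32 (16.3%) lower in FOLFIRINOX, beside 11.4% and 12.2% of all genes tested, with a median log2 difference of -0.02. The other 19 sense genes had a mean under 10 and were not tested, and 2 of them had no reads at all. With the P number as a block 44 sense genes were higher and 49 lower, and without both P14 libraries 12 were higher and 17 lower. The higher count was 15 without FOLFIRINOX P19, and the lower count was 20 without vehicle P15.

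Of the 75 higher antisense RNAs, 14 had a sense gene that was also higher, 5 had one that was lower, 51 had one that was not called and 5 had one that was not tested. Of the 8 lower antisense RNAs, 4 had a lower sense gene, 1 a higher one, 1 an uncalled one and 2 an untested one. Of the 133 uncalled antisense RNAs, 10 had a higher and 23 a lower sense gene. Over the 196 tested pairs, 109 had the same sign on both genes. Across those pairs, which share libraries and size factors, the 2 log2 differences had a Pearson correlation of 0.29 and a Spearman correlation of 0.23.

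**Figure D2:**
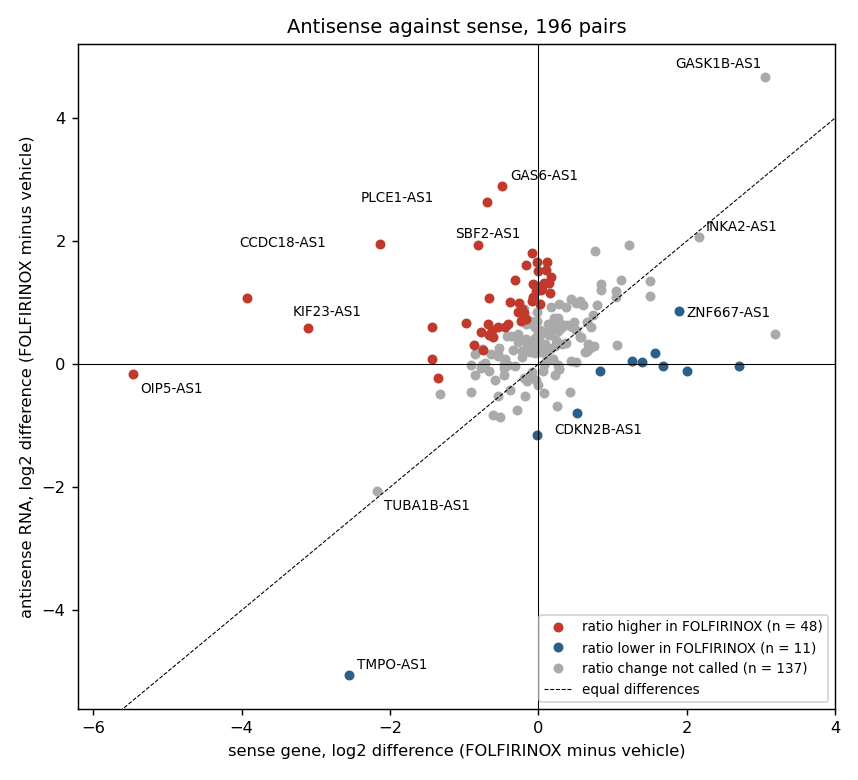
Log2 difference (FOLFIRINOX minus vehicle) of each antisense RNA (vertical axis) against that of its sense gene (horizontal axis) for 196 pairs, coloured by the test of the ratio, with a dashed line of equal differences. The 48 pairs with a higher ratio lie above the line, the 11 with a lower ratio below it, and OIP5-AS1 lies near 0 on the vertical axis at a sense difference of -5.46.

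The ratio of antisense to sense was tested within each pair, which asks whether the 2 genes responded by different amounts. In the limma fit over all 483 -AS1 pairs with both genes past the filter, the ratio was higher in FOLFIRINOX in 48 of the 196 member pairs and lower in 11, against 18.4% higher and 5.38% lower of all 483 pairs. The median ratio change of the members was 0.46 on the log2 scale, and 147 of 196 were positive. Of the 48 higher ratios, 30 had a higher antisense RNA and an uncalled sense gene, 10 an uncalled antisense RNA and a lower sense gene, 5 opposite calls and 3 no call on either gene. The count depended on the libraries. It was 17 higher and 4 lower without FOLFIRINOX P14, 17 and 4 without FOLFIRINOX P15, 23 and 5 without FOLFIRINOX P19, 17 and 3 without vehicle P15, 29 and 6 without vehicle P19, and 18 and 2 without both P14 libraries. Leaving out vehicle P14 left 6 lower. Of the 41 tested pairs whose exons do not overlap, 7 had a higher and 4 a lower ratio, beside 41 and 7 of the 154 whose exons overlap; the difference between these sets was not tested.

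OIP5-AS1 is an abundant conserved lncRNA also called Cyrano, which carries a site for the microRNA miR-7. OIP5 encodes a subunit of the Mis18 complex that prepares centromeres for the histone CENP-A. OIP5-AS1 (chr15:41283990-41309737, + strand) had 9192, 10439 and 11717 normalized reads in FOLFIRINOX, against 9505, 12926 and 12956 in vehicle, and the groups overlapped (limma log2 difference -0.17 ± 0.18 (SE), adjusted p = 0.53; 95% interval -0.55 to 0.22). OIP5 had 18.5, 5.90 and 6.54 normalized reads in FOLFIRINOX, against 422, 424 and 480.4 in vehicle, with all FOLFIRINOX libraries far lower (limma log2 difference -5.46 ± 0.39 (SE), adjusted p = 3.2e-06), and it passed the filter through the vehicle libraries, with 2 of the 3 FOLFIRINOX values under 10. The ratio change was 5.29 ± 0.48 (SE), adjusted p = 0.00031 by limma. Per kilobase of exon, OIP5-AS1 stood at 825 in FOLFIRINOX and 931 in vehicle, and OIP5 at 8.35 in FOLFIRINOX and 358 in vehicle. The genes meet tail-to-tail and 470 exonic bases (3.71% of OIP5-AS1) overlap.

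CCDC18-AS1 was higher beside a lower CCDC18, a coiled-coil protein gene. CCDC18-AS1 (chr1:93262186-93346025, - strand) had 1214, 1269 and 1133 normalized reads in FOLFIRINOX, against 232, 359.7 and 357 in vehicle, without overlap (limma log2 difference 1.95 ± 0.21 (SE), adjusted p = 7.1e-05). CCDC18 had 223, 170.1 and 289.5 normalized reads in FOLFIRINOX, against 751, 776 and 1618 in vehicle, with vehicle P19 the highest library and FOLFIRINOX below vehicle throughout (limma log2 difference -2.14 ± 0.31 (SE), adjusted p = 0.00062). The genes meet tail-to-tail with 72 overlapping exonic bases (1.50% of CCDC18-AS1), and the ratio change was 4.09 ± 0.38 (SE), adjusted p = 0.00031 by limma.

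KIF23 encodes a mitotic kinesin of the central spindle that is needed for cytokinesis. KIF23-AS1 had 371, 294 and 325 normalized reads in FOLFIRINOX, against 186, 279 and 200.0 in vehicle, without overlap, and did not pass (limma log2 difference 0.59 ± 0.22 (SE), adjusted p = 0.081; adjusted p = 0.015 with the P number as a block). KIF23 had 1091, 967 and 1371 normalized reads in FOLFIRINOX, against 7489, 9552 and 13090.4 in vehicle, all FOLFIRINOX libraries being lower (limma log2 difference -3.11 ± 0.22 (SE), adjusted p = 2.9e-06). The ratio change was 3.70 ± 0.34 (SE), adjusted p = 0.00031 by limma, for a head-to-head pair with starts 783 bases apart. The INKA2 and ZNF561 pairs, with starts 417 and 108 bases apart, were higher in both genes.

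SBF2-AS1 was higher beside a lower SBF2, which encodes a catalytically inactive myotubularin-related protein. SBF2-AS1 (chr11:9758292-9811335, + strand) had 1651, 1236 and 1518 normalized reads in FOLFIRINOX, against 339, 383 and 432 in vehicle, without overlap (limma log2 difference 1.93 ± 0.19 (SE), adjusted p = 3.3e-05). SBF2 had 2683, 3229.8 and 3728 normalized reads in FOLFIRINOX, against 4559.8, 6154 and 6295 in vehicle, lower in each FOLFIRINOX library (limma log2 difference -0.82 ± 0.19 (SE), adjusted p = 0.0099). The ratio change was 2.74 ± 0.30 (SE), adjusted p = 0.00071 by limma. Exons of SBF2 cover 32.2% of the exonic bases of SBF2-AS1. Per kilobase, SBF2-AS1 stood at 316 in FOLFIRINOX and 82.8 in vehicle, and SBF2 at 192 in FOLFIRINOX and 338 in vehicle.

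**Figure D3:**
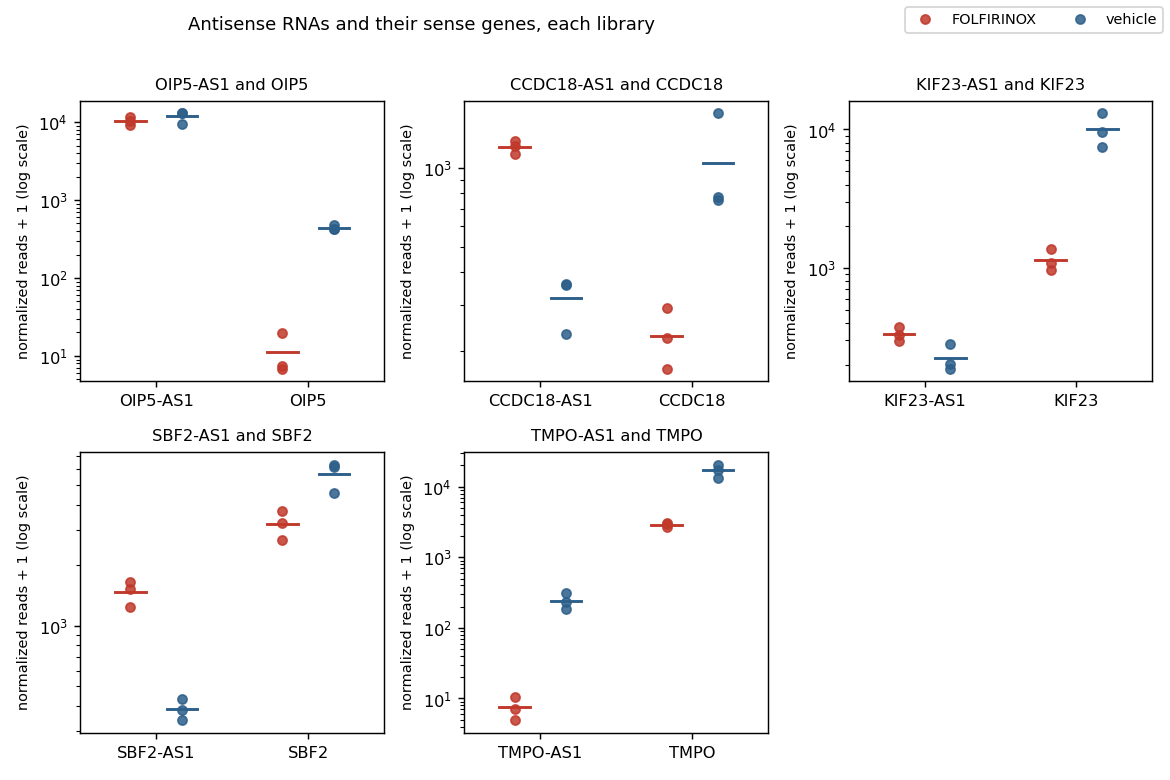
Normalized reads plus 1 in each library (log axes) for 5 antisense RNAs and their sense genes, FOLFIRINOX left of vehicle, with a line at the mean of 3 libraries. OIP5-AS1 overlaps between groups while OIP5 does not, CCDC18-AS1 and SBF2-AS1 are higher beside lower sense genes, and TMPO-AS1 and TMPO are both lower.

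Opposite calls were also found in 3 pairs with smaller differences. PCBP1 encodes a poly(rC)-binding protein of RNA and UGDH the enzyme that makes UDP-glucuronate. PCBP1-AS1 had 999.9, 988 and 912 normalized reads in FOLFIRINOX, against 577, 628 and 648 in vehicle, without overlap (limma log2 difference 0.65 ± 0.16 (SE), adjusted p = 0.016), and PCBP1 had 13125, 16818 and 15238 normalized reads in FOLFIRINOX, against 23461, 26173 and 22676 in vehicle, all lower in FOLFIRINOX (limma log2 difference -0.68 ± 0.15 (SE), adjusted p = 0.0091). The call of PCBP1-AS1 was lost without FOLFIRINOX P15 or FOLFIRINOX P19 (adjusted p 0.052 to 0.055). UGDH-AS1 had 317, 291 and 304 normalized reads in FOLFIRINOX, against 244, 166 and 171 in vehicle, without overlap (limma log2 difference 0.67 ± 0.22 (SE), adjusted p = 0.047). UGDH had 10159.6, 7428 and 10298 normalized reads in FOLFIRINOX, against 16499, 16541 and 21778 in vehicle, all lower in FOLFIRINOX (limma log2 difference -0.98 ± 0.18 (SE), adjusted p = 0.0034). UGDH-AS1 was not called without FOLFIRINOX P14, FOLFIRINOX P15, FOLFIRINOX P19, vehicle P15 or vehicle P19 (adjusted p 0.090 to 0.15). Ratio changes were 1.33, adjusted p = 0.016, for PCBP1-AS1 and 1.65, adjusted p = 0.014, for UGDH-AS1 by limma.

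Another pair with opposite calls was CDKN2B-AS1, the lncRNA also called ANRIL, with CDKN2B, which encodes p15INK4b, an inhibitor of the cyclin-dependent kinases CDK4 and CDK6. ANRIL is known for binding Polycomb proteins at the INK4 locus. CDKN2B-AS1 (chr9:21994778-22121097, + strand) had 110.1, 82.6 and 106 normalized reads in FOLFIRINOX, against 148, 179 and 191 in vehicle, lower in every FOLFIRINOX library (limma log2 difference -0.79 ± 0.24 (SE), adjusted p = 0.034). CDKN2B had 3010.0, 2976 and 2982 normalized reads in FOLFIRINOX, against 2008, 2365 and 1930.0 in vehicle, higher in every FOLFIRINOX library (limma log2 difference 0.51 ± 0.16 (SE), adjusted p = 0.035). The ratio was lower in FOLFIRINOX by limma (-1.31 ± 0.29 (SE), adjusted p = 0.018). The call of CDKN2B-AS1 was lost without FOLFIRINOX P15, FOLFIRINOX P19, vehicle P15 or vehicle P19 (adjusted p 0.077 to 0.11), that of CDKN2B without FOLFIRINOX P14, FOLFIRINOX P15, FOLFIRINOX P19, vehicle P14 or vehicle P19 (adjusted p 0.075 to 0.13), and that of the ratio without FOLFIRINOX P15 (adjusted p = 0.062).

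Besides TMPO-AS1, TUBA1B-AS1 and CDKN2B-AS1, the lower antisense RNAs were SNAI3-AS1, ZFHX3-AS1, NR2F2-AS1, ZNF232-AS1 and FGD5-AS1, whose sense gene encodes an exchange factor for Cdc42. SNAI3-AS1 had 180.0, 263 and 244 normalized reads in FOLFIRINOX, against 526, 539 and 596 in vehicle, without overlap (limma log2 difference -1.29 ± 0.21 (SE), adjusted p = 0.0013), and its sense gene, of the Snail family, was too low to test. ZFHX3-AS1 had 168, 294 and 149 normalized reads in FOLFIRINOX, against 327, 560.2 and 450.5 in vehicle (limma log2 difference -1.16 ± 0.29 (SE), adjusted p = 0.016), while ZFHX3, a zinc finger homeobox gene, had -0.02 (adjusted p = 0.93). NR2F2-AS1 had 678, 367 and 369 normalized reads in FOLFIRINOX, against 840.1, 720.4 and 901 in vehicle (limma log2 difference -0.86 ± 0.25 (SE), adjusted p = 0.030), and NR2F2, an orphan nuclear receptor gene, had -0.52 (adjusted p = 0.031). In these 3 RNAs every FOLFIRINOX library was below every vehicle library. The call of ZFHX3-AS1 was lost without vehicle P15 (adjusted p = 0.058), that of its ratio change of -1.13 without FOLFIRINOX P14, FOLFIRINOX P19, vehicle P14, vehicle P15 or vehicle P19 (adjusted p 0.062 to 0.15), that of NR2F2-AS1 without FOLFIRINOX P15, FOLFIRINOX P19, vehicle P14 or vehicle P19 (adjusted p 0.060 to 0.10), and that of NR2F2 without FOLFIRINOX P14, FOLFIRINOX P15, FOLFIRINOX P19 or vehicle P15 (adjusted p 0.077 to 0.14).

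Of the 5 most abundant members, 1 was higher, 1 lower and 3 were not called, among them OIP5-AS1. FGD5-AS1, the highest, had 14192, 14540.1 and 14337 normalized reads in FOLFIRINOX, against 17674, 20096 and 21359 in vehicle, without overlap and lower in FOLFIRINOX (limma log2 difference -0.45 ± 0.14 (SE), adjusted p = 0.044). It was not called without FOLFIRINOX P14, FOLFIRINOX P15, FOLFIRINOX P19, vehicle P15 or vehicle P19 (adjusted p 0.093 to 0.15). FGD5 had 0 to 3.74 normalized reads in FOLFIRINOX and 0 in each vehicle library and was not tested. HAND2-AS1 had 8106, 9345 and 9027 normalized reads in FOLFIRINOX, against 7074, 7946 and 8248 in vehicle (limma log2 difference 0.19 ± 0.15 (SE), adjusted p = 0.40; 95% interval -0.14 to 0.52), and HAND2, a basic helix-loop-helix factor gene, had -0.04 (adjusted p = 0.86). SVIL-AS1 had 4069.6, 3726 and 3479.7 normalized reads in FOLFIRINOX, against 4014, 3924 and 4015 in vehicle (limma log2 difference -0.09 ± 0.15 (SE), adjusted p = 0.71; 95% interval -0.41 to 0.24), and SVIL, which encodes the actin-binding supervillin, had 0.28 (adjusted p = 0.24). The groups of HAND2-AS1 and SVIL-AS1 overlapped.

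GABPB1-AS1 was the higher one of these 5. GABPB1 encodes the beta subunit of the ETS-family factor GABP. GABPB1-AS1 had 5306, 6267 and 4551 normalized reads in FOLFIRINOX, against 1430.1, 2325 and 1956 in vehicle, well separated (limma log2 difference 1.51 ± 0.21 (SE), adjusted p = 0.00044). GABPB1 had 3124, 2838 and 3128 normalized reads in FOLFIRINOX, against 2764, 2688 and 3796 in vehicle, with overlapping groups (limma log2 difference -0.01 ± 0.18 (SE), adjusted p = 0.98). The ratio change of 1.52, adjusted p = 0.018 by limma, in a head-to-head pair with starts 449 bases apart, did not pass without FOLFIRINOX P15 (adjusted p = 0.057).

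Of further antisense RNAs that are widely studied in other settings, THAP9-AS1 and ZEB1-AS1 were higher, and FOXD2-AS1 and MAPKAPK5-AS1 did not pass. THAP9-AS1 had 5623, 3058 and 4532 normalized reads in FOLFIRINOX, against 1863, 1232 and 2259.9 in vehicle, without overlap (limma log2 difference 1.30 ± 0.26 (SE), adjusted p = 0.0051), and THAP9, a gene derived from a DNA transposase, had 0.84 (adjusted p = 0.062), which passed with the P number as a block (adjusted p = 0.0011) and without vehicle P19 (adjusted p = 0.014). ZEB1-AS1 had 568, 608 and 656 normalized reads in FOLFIRINOX, against 326, 335 and 355 in vehicle, without overlap (limma log2 difference 0.85 ± 0.18 (SE), adjusted p = 0.0057), beside -0.28 (adjusted p = 0.47) for ZEB1, a repressor of epithelial genes. Its ratio change of 1.12, adjusted p = 0.041, did not pass with any 1 library left out (adjusted p 0.052 to 0.12). FOXD2-AS1 did not pass at 0.59 (adjusted p = 0.072), and passed with the P number as a block (adjusted p = 0.013), and the forkhead gene FOXD2 had 0.31 (adjusted p = 0.49). MAPKAPK5-AS1 had 1399, 1099.6 and 1048 normalized reads in FOLFIRINOX, against 1302, 862 and 942 in vehicle, with overlapping groups (limma log2 difference 0.20 ± 0.21 (SE), adjusted p = 0.51; 95% interval -0.25 to 0.66), and the kinase gene MAPKAPK5 had 0.03 (adjusted p = 0.92).

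Antisense pairs were also set by how their genes lie in GENCODE 29, in which 215 antisense genes and 213 pairs could be placed. Of all 216 members 34.7% were higher and 3.70% lower, against 11.4% and 12.2% of all genes tested. Of the tested sense genes 12.8% were higher and 16.3% lower. Among all genes with a mean of 100 or more, 11.6% were higher and 15.4% lower. The counts by arrangement, exon overlap and promoter window stand beside these shares, and differences between such sets were not tested. Head-to-head with overlap was the most frequent arrangement, with 108 pairs, of which 40 antisense RNAs were higher and 2 lower, while 10 sense genes were higher and 18 lower. Head-to-head without overlap held 17 pairs, with 7 antisense RNAs higher, and 6 sense genes higher and 1 lower. Tail-to-tail overlap held 42 pairs, with 15 antisense RNAs higher and 2 lower, and 3 sense genes higher and 6 lower. Antisense genes inside their sense gene numbered 25 (9 higher, 1 lower), and those around it 19 (4 higher, 3 lower). Of the remaining 5 pairs, 1 lay on the same strand, 1 was tail-to-tail without overlap and 3 could not be placed. The 83 head-to-head pairs with starts within 1000 bases had 34 higher antisense RNAs and 1 lower.

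Correlations between the log2 differences of antisense and sense describe pairs that share the same libraries, and were not compared by a test. Pearson's correlation was 0.48 (Spearman 0.37) over the 105 tested head-to-head overlapping pairs, and 0.01 (Spearman 0.00) over the 38 tested tail-to-tail overlapping pairs. It was 0.58 (Spearman 0.31) over 17 head-to-head pairs without overlap, and 0.39 (Spearman 0.31) over 83 head-to-head pairs with starts within 1000 bases. With the sense gene inside the antisense gene it was 0.59 (Spearman 0.33, 13 pairs), and in the reverse case -0.08 (Spearman 0.04, 21 pairs). Exons of the antisense RNA overlapped those of the sense gene in 166 pairs, with 61 antisense RNAs higher and 6 lower, and did not in 46 pairs, with 14 higher and 2 lower. Where both RefSeq promoter windows were matched, they shared bases in 53 pairs, with 22 antisense RNAs and 7 sense genes higher, and shared none in 99 pairs, with 29 antisense RNAs and 11 sense genes higher. Both genes of the pair were higher in 5 of the 53 and in 6 of the 99.

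Levels were compared within a pair per kilobase of exon. The median over pairs of the antisense to sense ratio of normalized reads per kilobase was 0.351 in FOLFIRINOX and 0.229 in vehicle. The antisense RNA stood above its sense gene in 77 of 212 pairs in FOLFIRINOX and in 63 of 206 pairs in vehicle, where pairs with a sense gene at 0 were left out. More pairs were left out in vehicle, so the medians and counts of the groups rest on different sets of pairs. An antisense RNA with reads stands above a sense gene at 0, so leaving such pairs out lowers the vehicle values more. The part of this in the difference between groups was not tested.

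Among 16 pairs whose sense gene is named ZNF and a number, grouped after their values were seen, both genes were higher in FOLFIRINOX in 6. ZNF genes with Krüppel-type fingers encode DNA-binding proteins, many of them repressors of transposable elements, and lie in clusters on chromosome 19. Of 16 pairs named ZNF and a number, 9 antisense RNAs were higher and 1 lower, and 8 sense genes were higher and 1 lower. The medians were 0.77 for the antisense RNAs and 0.63 for the sense genes on the log2 scale. In the other 200 pairs 66 antisense RNAs were higher and 7 lower, and of 180 tested sense genes 17 were higher and 31 lower. These 200 include pairs of zinc finger genes with other names, such as ZFHX3. On chromosome 19, 7 of 9 ZNF antisense RNAs and 6 of 9 sense genes were higher.

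ZNF561-AS1 had 2524, 2066 and 1519 normalized reads in FOLFIRINOX, against 1065, 863 and 889.8 in vehicle, without overlap (limma log2 difference 1.09 ± 0.21 (SE), adjusted p = 0.0035), and ZNF561 had 8299.7, 7702 and 7666 normalized reads in FOLFIRINOX, against 3534, 3919 and 4038 in vehicle, also without overlap (limma log2 difference 1.04 ± 0.15 (SE), adjusted p = 0.00053). The pair shares most of its promoter windows printed above, and its ratio change was 0.05 (95% interval -0.65 to 0.75). ZNF790-AS1 had 666, 479.9 and 416 normalized reads in FOLFIRINOX, against 154, 156 and 122 in vehicle (limma log2 difference 1.83 ± 0.23 (SE), adjusted p = 0.00026), and ZNF790 had 593, 443 and 590.2 normalized reads in FOLFIRINOX, against 373, 248 and 345 in vehicle (limma log2 difference 0.76 ± 0.22 (SE), adjusted p = 0.030). Neither gene's groups overlapped, and the call of ZNF790 was lost without FOLFIRINOX P14, FOLFIRINOX P19 or vehicle P15 (adjusted p 0.086 to 0.12). The ratio change of ZNF790-AS1 was 1.07, adjusted p = 0.054, by limma, and adjusted p = 0.039 with the P number as a block.

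ZNF667-AS1 had 1927, 1294 and 1319 normalized reads in FOLFIRINOX, against 1039, 697 and 751 in vehicle (limma log2 difference 0.86 ± 0.22 (SE), adjusted p = 0.016), and ZNF667 had 957, 862 and 927 normalized reads in FOLFIRINOX, against 235, 232 and 269 in vehicle (limma log2 difference 1.90 ± 0.18 (SE), adjusted p = 2.3e-05). Here the sense gene differed by more than the antisense RNA, with a ratio change of -1.03, adjusted p = 0.046, by limma, which did not pass with any 1 library left out (adjusted p 0.060 to 0.13). The call of ZNF667-AS1 was lost without FOLFIRINOX P14 or vehicle P15 (adjusted p 0.057 to 0.060). ZNF225-AS1 went with an uncalled sense gene, at 1013, 667 and 691 normalized reads in FOLFIRINOX, against 258, 261 and 221 in vehicle (limma log2 difference 1.65 ± 0.21 (SE), adjusted p = 0.00029) beside 0.11 (adjusted p = 0.75) for ZNF225. Its ratio change was 1.54, adjusted p = 0.022, and did not pass without FOLFIRINOX P14, FOLFIRINOX P15, vehicle P15 or vehicle P19 (adjusted p 0.051 to 0.065). ZNF674-AS1 and ZNF433-AS1 had differences of 0.04 and 0.04 beside higher sense genes (1.39 (adjusted p = 0.0024) for ZNF674 and 1.26 (adjusted p = 0.0051) for ZNF433). Their ratio changes of -1.35, adjusted p = 0.025, and -1.22, adjusted p = 0.046, by limma were lost with any of 4 single libraries left out for ZNF674-AS1 (both P14 libraries, FOLFIRINOX P19 and vehicle P15) and any of 5 for ZNF433-AS1 (all but vehicle P19).

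ZNF337-AS1 and ZNF337 were higher by 1.37 and 1.12 (limma adjusted p = 0.0038 and 0.0012), ZNF606-AS1 and ZNF606 by 0.95 and 0.79 (adjusted p = 0.013 and 0.0095), and ZNF528-AS1 and ZNF528 by 0.68 and 0.66 (adjusted p = 0.014 and 0.012). The calls were lost for ZNF606-AS1 without FOLFIRINOX P15 or vehicle P14 (adjusted p 0.05041 to 0.052), for ZNF606 without FOLFIRINOX P19 (adjusted p = 0.051), for ZNF528-AS1 without FOLFIRINOX P19 or vehicle P15 (adjusted p 0.05001 to 0.060) and for ZNF528 without FOLFIRINOX P19 (adjusted p = 0.062). ZNF232-AS1 was the single lower ZNF antisense RNA, with 237, 186 and 165 normalized reads in FOLFIRINOX, against 501, 276 and 292 in vehicle (limma log2 difference -0.82 ± 0.27 (SE), adjusted p = 0.046), beside -0.61 (adjusted p = 0.037) for ZNF232. Both calls were lost on leaving out libraries, that of ZNF232-AS1 without FOLFIRINOX P15, FOLFIRINOX P19 or vehicle P14 (adjusted p 0.10 to 0.16) and that of ZNF232 without FOLFIRINOX P15, FOLFIRINOX P19, vehicle P14 or vehicle P15 (adjusted p 0.096 to 0.16).

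**Figure D4:**
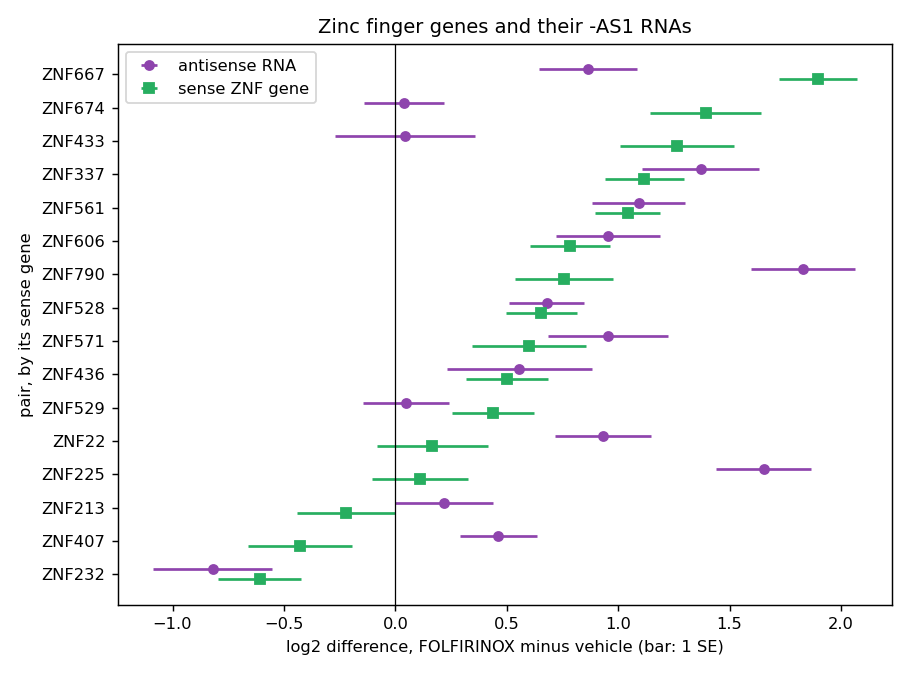
Log2 difference (FOLFIRINOX minus vehicle; bars are 1 SE from limma) of the 16 ZNF sense genes and their antisense RNAs, ordered by the sense gene. In most pairs both symbols lie right of 0, ZNF225 and ZNF22 have a higher antisense RNA beside a sense gene near 0, and ZNF232 lies left of 0 for both.

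Outside the pairs named ZNF and a number, 8 pairs were higher in both genes, GASK1B, INKA2 and ARHGAP5 among them. DSP encodes desmoplakin, the protein that ties desmosomes to keratin filaments. DSP-AS1 had 822, 702 and 618 normalized reads in FOLFIRINOX, against 316, 262 and 257 in vehicle, without overlap (limma log2 difference 1.35 ± 0.19 (SE), adjusted p = 0.00060), and DSP had 36428, 45417 and 59450.2 normalized reads in FOLFIRINOX, against 12639, 18692 and 18257 in vehicle, without overlap either (limma log2 difference 1.50 ± 0.21 (SE), adjusted p = 0.00058). The starts of this pair lie 237 bases apart. FLRT2, an adhesion protein gene, and BVES, a membrane protein gene of the Popeye family, had antisense differences of 1.21 (adjusted p = 0.0012) and 1.11 (adjusted p = 0.011) and sense differences of 0.84 (adjusted p = 0.0072) and 1.50 (adjusted p = 5.2e-05) by limma. AP1G2, a clathrin adaptor gene, and PNISR had 1.02 (adjusted p = 0.049) and 0.80 (adjusted p = 0.020) for the antisense RNAs and 0.56 (adjusted p = 0.04982) and 0.74 (adjusted p = 0.04993) for the sense genes. The call of BVES-AS1 was lost without FOLFIRINOX P15 (adjusted p = 0.051). Those of the AP1G2 and PNISR pairs were lost on leaving out several libraries, AP1G2-AS1 without FOLFIRINOX P14, FOLFIRINOX P15, vehicle P14 or vehicle P19 (adjusted p 0.071 to 0.17), AP1G2 without FOLFIRINOX P15, FOLFIRINOX P19, vehicle P14, vehicle P15 or vehicle P19 (adjusted p 0.089 to 0.18), PNISR-AS1 without FOLFIRINOX P14, FOLFIRINOX P19 or vehicle P14 (adjusted p 0.052 to 0.10) and PNISR without FOLFIRINOX P14, FOLFIRINOX P15, FOLFIRINOX P19, vehicle P14 or vehicle P15 (adjusted p 0.055 to 0.18).

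The 23 uncalled antisense RNAs with a lower sense gene included both lysyl oxidase pairs, chosen after their values were seen. LOXL1 and LOXL2 encode enzymes that crosslink collagen and elastin. LOXL2-AS1 had 327, 368 and 267 normalized reads in FOLFIRINOX, against 234, 237 and 164 in vehicle, without overlap and without passing (limma log2 difference 0.61 ± 0.23 (SE), adjusted p = 0.080; adjusted p = 0.0081 with the P number as a block). LOXL2 had 21644, 26347 and 22013 normalized reads in FOLFIRINOX, against 72548, 71033 and 48450.0 in vehicle, lower in every FOLFIRINOX library (limma log2 difference -1.44 ± 0.19 (SE), adjusted p = 0.00029). LOXL1-AS1 had -0.23 (adjusted p = 0.32) and LOXL1 -1.35 (adjusted p = 0.00047). Ratio changes were 2.05, adjusted p = 0.0019, for LOXL2-AS1 and 1.12, adjusted p = 0.035, for LOXL1-AS1 by limma, and that of LOXL1-AS1 did not pass without FOLFIRINOX P14, FOLFIRINOX P15, FOLFIRINOX P19, vehicle P14 or vehicle P15 (adjusted p 0.060 to 0.088).

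Among the 10 uncalled antisense RNAs with a higher sense gene, EFCAB10-AS1 had a lower ratio, with a change of -2.74, adjusted p = 0.032, by limma. EFCAB10, which encodes an EF-hand protein, had only 18.5, 10.8 and 30.8 normalized reads in FOLFIRINOX, against 8.20, 0 and 1.87 in vehicle, while EFCAB10-AS1 had 147, 163 and 184 normalized reads in FOLFIRINOX, against 158, 161 and 186 in vehicle. The antisense groups overlapped and the sense groups did not (sense: limma log2 difference 2.71 ± 0.85 (SE), adjusted p = 0.040). EFCAB10 passed the filter only through the FOLFIRINOX libraries, where it is high, and with 1 of these left out neither it nor the ratio was tested. The ratio call was lost without vehicle P15 or vehicle P19 (adjusted p 0.068 to 0.071) and that of EFCAB10 without vehicle P15 or vehicle P19 (adjusted p 0.058 to 0.092). PAPLN-AS1 had -0.03 (adjusted p = 0.95) and PAPLN, which encodes the matrix protein papilin, 1.68 (adjusted p = 0.0024), with a ratio change of -1.71, adjusted p = 0.0094.

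Other lncRNA classes with a mean of 100 or more were also more often higher than lower. Of 97 lncRNAs named LINC, 33 were higher and 8 lower, with a median log2 difference of 0.42. Of 88 divergent transcripts named -DT, 27 were higher and 3 lower (median 0.28). Of 19 antisense RNAs with other numbers or none, 4 were higher (median 0.34), and HOXB-AS3 and RBMS3-AS3 were among the 4. All 849 lncRNAs together had 251 higher and 44 lower (median 0.35), whereas 11226 protein-coding genes had 1159 higher and 1853 lower (median -0.05). These differences between classes were not tested.

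**Figure D5:**
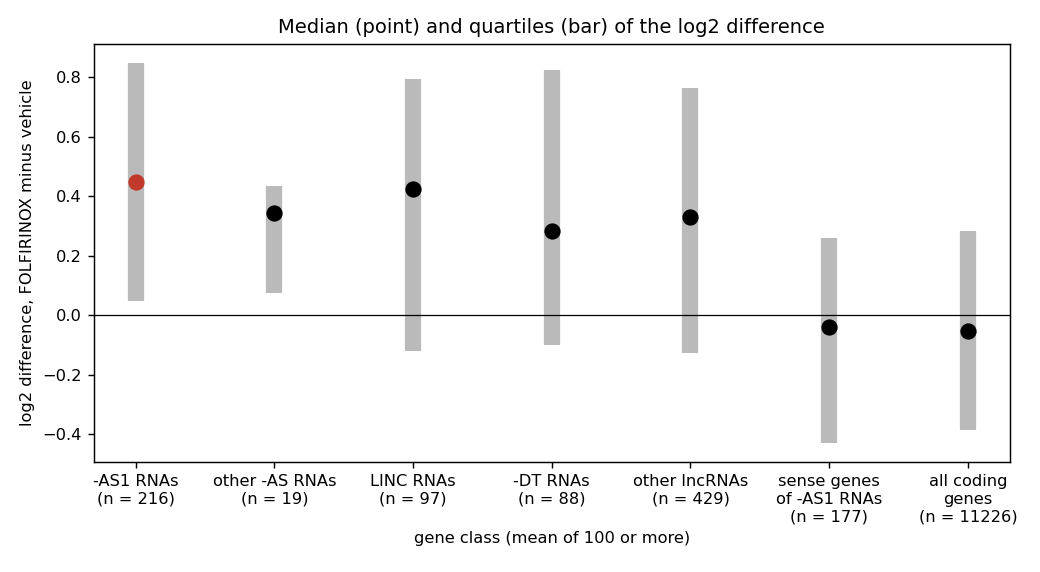
Median (point) and quartiles (bar) of the log2 difference, FOLFIRINOX minus vehicle, for gene classes with a mean of 100 or more. The -AS1 RNAs and the other lncRNA classes have medians of 0.28 to 0.45, and the sense genes and all protein-coding genes have medians just below 0.

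Genes that degrade, edit or bind nuclear and double-stranded RNA were read beside these levels, from a list of 33 exosome, RNA decay and double-stranded RNA genes. By limma 5 of the 33 (15.2%) were lower in FOLFIRINOX and 0 higher, and the list median was -0.08. Beside this, 12.2% of all genes tested and 15.4% of genes with a mean of 100 or more were lower. The nuclear exosome subunits EXOSC2, EXOSC8 and EXOSC10 had differences of -0.58, -0.87 and -0.44 (limma adjusted p = 0.018, 0.0066 and 0.048). The other EXOSC genes of the list were not called, with differences of -0.42 to 0.65. DIS3, DIS3L, MTREX, ZCCHC7, ZCCHC8 and RBM7, also on the list, were not called either, with differences of 0.04 to 0.40. In all, 13 of the 33 differences were positive. With the P number as a block, 2 of the 33 were higher, DIS3L among them, and 8 lower, against a background of 22.3% and 21.8%. The RNA-binding protein gene ILF2 had -0.66 (limma adjusted p = 0.0090). EXOSC8 had 2870.1, 1970.0 and 2211 normalized reads in FOLFIRINOX, against 4395, 3687 and 4702 in vehicle, without overlap. The calls were lost for EXOSC2 without FOLFIRINOX P15, FOLFIRINOX P19 or vehicle P15 (adjusted p 0.069 to 0.080), for ILF2 without FOLFIRINOX P19 (adjusted p = 0.058) and for EXOSC10 with any 1 library left out (adjusted p 0.058 to 0.16). Whether these genes have a part in the antisense levels was not tested.

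At the threshold of the rule, the members with the lowest means were RNF217-AS1 at 101, CCNY-AS1 at 102 and NDUFB2-AS1 at 103 normalized reads. Just outside were SEPTIN4-AS1 at 99.9, THAP7-AS1 at 99.5 and KMT2E-AS1 at 98.6. SEPTIN4-AS1 averaged 174 ± 51.5 normalized reads in FOLFIRINOX and 25.4 ± 8.04 in vehicle (SD, n = 3 each). The 3 members just inside had means in FOLFIRINOX of 106, 102 and 115 and in vehicle of 95.6, 101 and 90.6, in the order named.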

How the data were processed

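The 6 RNA libraries of HPNE-hTERT cells (3 FOLFIRINOX, 3 vehicle) were prepared with KAPA RNA HyperPrep reagents after mRNA enrichment (NEB), per the labels' protocols. The submitters' processing notes name FastQC 0.12.1, STAR 2.7.11b, featureCounts 2.0.6, DESeq2 and GRCh38; neither the annotation release nor the strand setting is given there. The table deposited by the authors gives for each gene a size-factor-normalized signal per library and its mean, with log2 fold changes, a standard error and test score, and p-values and adjusted p-values of the authors' own comparison. All normalized values (100%) were whole multiples, within 0.001, of 1 read, so read counts were recovered. Columns were assigned to the groups their names give.

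Genes with 10 or more normalized reads in at least 3 libraries (17951) were tested on log2(value + 1) with limma 3.58.1 (R 4.3.3, mean-variance trend, Benjamini-Hochberg adjustment over all tested, threshold 0.05), and a fold change is on that scale, which understates changes of low genes. The ratio was tested with limma without trend over 483 pairs. Alternatives were other pseudocounts, filters, scalings and trend settings, a replicate block, each library left out, edgeR 4.0.16 and DESeq2 1.42.0 on the recovered reads, and other minimum means; leaving out both P14 libraries and restricting to pairs without exon overlap were added after the data were seen. Columns with the same P number deviated together (correlation of deviations from group means 0.257 to 0.288, against -0.263 to -0.027 for different numbers), so the P number was taken to pair libraries in the replicate block. The main fits did not use this pairing, and a gene not called in them may be called with the block. The labels' own replicate numbers do not occur in the column names. Replicates differed beyond counting noise (chi-square per degree of freedom 66.6 or more). Even values were 72.3% to 74.8% of the counts below 50, so a read may be 1 of 2 ends of a fragment.

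Members, gene lists and tests were chosen with earlier results of these data known. Values are given for the 12 largest called differences without overlap, the 5 highest means, the 8 largest called ratio changes, all opposite pairs, a list of known antisense RNAs and the members at the threshold; other genes were named after their values were seen. Some genes these rules would name are not reported here. Gene positions came from GENCODE 29 (GRCh38), matched on Ensembl gene IDs. The procedure was also run on simulated counts, which were drawn without a pairing of libraries by P number. In the authors' deposited table, 75 members were higher and 8 lower, of which 74 and 8 had the same call by limma.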

Additional observations from a re-analysis of the deposited data

How the results depend on the processing

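No result changed sign past the threshold under any alternative that was run. The single genes and ratios and the median of all genes were recomputed (173 results). Of their values, 2533 stayed the same, 233 lost a call and 41 gained one. The median of all genes moved in 2 settings, without a filter and with scaling to a common total. The members' higher count of 75 was 73 by edgeR, 79 by DESeq2 and 51 to 70 with each library left out; the lower count of 8 was 9 by edgeR and 10 by DESeq2. Without a filter, 5 members were lower and 9 ratios higher and 3 lower. With scaling to a common total, 5 members were lower and the members' median was 0.56; that scaling moved the median of all genes by 0.11, and the members' median less that of all genes was 0.43 under each scaling. With the other trend setting, 4 members and 20 sense genes were lower. With the replicate block on P number, 16 members were lower, 44 sense genes higher and 49 lower, and 3995 genes higher and 3918 lower over all; calls gained by named genes are given in the text beside them, and CCNY, ZNF407, ZNF407-AS1, ZNF529, ZNF571, ZNF436 and EPB41L4A-AS1 gained one too; it changed no other call of the single genes and ratios recomputed. At a minimum mean of 200, 5 members and 5 ratios were lower. The 41 tested pairs without exon overlap gave 7 higher and 4 lower ratios.

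Without both P14 libraries, 40 members were higher and 4 lower, 12 sense genes higher and 17 lower, 1021 genes higher and 1326 lower, and 18 ratios higher and 2 lower. With each library left out, the lower members ranged from 4 to 7, higher ratios from 17 to 32, lower ratios from 3 to 6, higher sense genes from 15 to 31, lower sense genes from 20 to 33, and genes over all from 1201 to 2214 higher and 1506 to 2156 lower. The cause of these shifts was not tested. The smallest p an exact permutation test of 3 against 3 libraries allows is 0.1, so no single value could pass one. If strand was not used in counting, reads of overlapping pairs cannot be separated, and a polyadenylated library does not count antisense RNAs without a tail.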
